A study of Mus musculus with 6 samples.

Results

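RNA sequencing of mouse fetal ovaries at E15.5 yielded 817 assembled transcripts whose class code marked a retained intron, out of 114412 transcripts in the deposited counts. Of the 114412, 79895 had a count in at least 1 pool. A transcript was taken when its code was m or n, the letters that a comparison of assembled exons with RefSeq gives to a transcript keeping intron sequence in an exon. Code m (520 transcripts) stands for a match in which every other intron is that of the reference, and code n (297 transcripts) for a match in which some introns do not. The 817 transcripts came from 617 host genes, of which 509 carried a single member.

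The study compared ovaries of embryos from pregnant C57Bl6j mice (written C57BL/6J in the methods) given panobinostat (PB), a histone deacetylase inhibitor used against multiple myeloma, with ovaries of embryos from vehicle-treated mothers. Controls received DMSO and water. PB was given at 5 mg/kg from E6.5 to E15.5, and the ovaries were collected at E15.5. Each group comprised 3 pools of ovaries, numbered 1 to 3, sequenced from polyA RNA as stranded libraries. The labels gave the PB dose per day whereas the methods gave alternate days, and the sources differed on the number of ovaries in a pool. The series text refers to the mice behind all 6 libraries, controls included, as exposed, and the groups here follow the treatment labels. All groups shared strain, tissue and day, and no transgene was involved.

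Splicing removes introns from a nascent transcript, and a transcript that keeps an intron is often held in the nucleus or, once exported, degraded through nonsense-mediated decay when the intron brings in a stop codon. Retained introns are known to be short and weakly spliced as a group, and genes for splicing regulators such as the CLK kinases and SR proteins use them to set their own levels. E15.5 mouse ovaries hold germ cells in meiotic prophase together with pregranulosa cells and interstitial cells.

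The class code was first checked against the exon structure. Of the 817 transcripts, 567 (69.4%) held at least 1 whole intron of the matched RefSeq transcript inside an exon. All 297 class n transcripts did so, and 270 of the 520 class m transcripts did. A further 247 class m transcripts held no whole intron of the reference and had at least 1 added intron that the reference lacks. In 142 of them an added intron lay inside 1 reference exon, and in the other 105 an added intron reached out of a reference exon. The remaining 3, which belonged to Peg10, could not be checked because the matched transcript had no exons in the assembled annotation. The label retained intron therefore held for the exons of 567 transcripts, and the other 250 are called below transcripts without a whole intron.

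**Figure D1:**
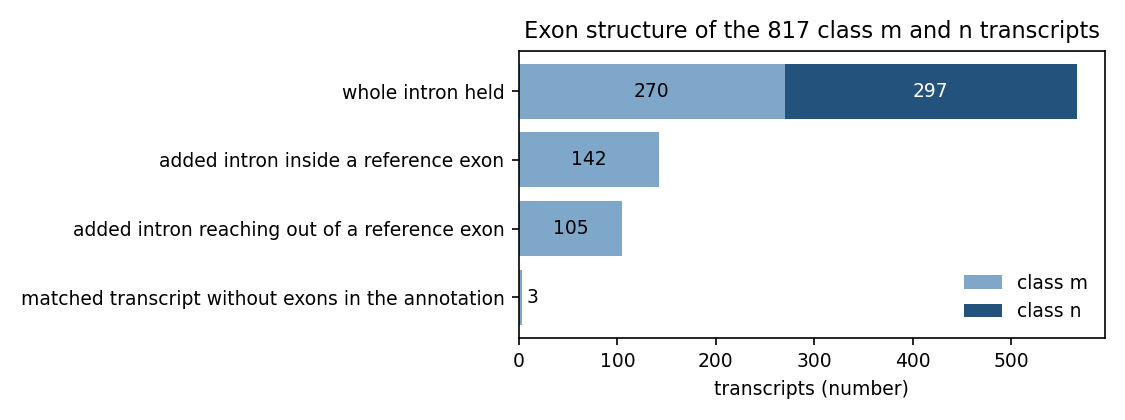
Number of transcripts (x axis) in each structural group (y axis), split by class code (light blue, m; dark blue, n). All 297 class n transcripts hold a whole reference intron, whereas 142 and 105 class m transcripts carry an added intron instead.

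The sequences below show what both kinds look like. They were read from GENCODE M21 transcripts on the mm10 build, 5′ to 3′ on the strand of the gene, for items lying in or between coding exons. The first 4 are retained introns of transcripts described below, a signalling kinase, a cell surface protein, a synaptonemal complex protein and a nuclear pore protein. Capitals mark the retained intron, and the 10 bases on each side in lower case are exon.
Ip6k2 intron 3, chr9:108798169-108798280, plus strand: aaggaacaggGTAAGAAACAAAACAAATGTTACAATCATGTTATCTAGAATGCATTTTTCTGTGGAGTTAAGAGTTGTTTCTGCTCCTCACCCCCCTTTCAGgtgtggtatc
Ly6e intron 4, chr15:74958379-74958502, plus strand: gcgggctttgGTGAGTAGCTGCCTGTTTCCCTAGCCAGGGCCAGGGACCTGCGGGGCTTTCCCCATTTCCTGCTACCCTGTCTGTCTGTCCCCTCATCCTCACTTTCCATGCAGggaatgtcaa
Sycp3 intron 8, chr10:88472771-88472914, plus strand: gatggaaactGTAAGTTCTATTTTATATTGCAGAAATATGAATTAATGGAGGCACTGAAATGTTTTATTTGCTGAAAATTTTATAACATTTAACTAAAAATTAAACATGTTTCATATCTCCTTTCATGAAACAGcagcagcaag
Tpr intron 42, chr1:150440189-150440448, plus strand: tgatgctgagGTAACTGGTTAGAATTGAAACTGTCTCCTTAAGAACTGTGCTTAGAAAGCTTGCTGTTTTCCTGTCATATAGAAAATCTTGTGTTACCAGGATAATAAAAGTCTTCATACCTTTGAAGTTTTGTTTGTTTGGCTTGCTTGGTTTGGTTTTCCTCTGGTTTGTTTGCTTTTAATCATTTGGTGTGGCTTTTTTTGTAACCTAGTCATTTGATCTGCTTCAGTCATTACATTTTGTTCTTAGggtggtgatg

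All 4 introns begin with GT and end with AG. They measured 92, 104, 124 and 240 bases, and of these only the 240-base Tpr intron was a multiple of 3 in length. Their GC content was 37.0% in Ip6k2, 59.6% in Ly6e, 24.2% in Sycp3 and 34.6% in Tpr.

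The next 5 sequences show stretches that an assembled transcript skips inside a coding exon of the reference, and, for Peg3, a stretch that RefSeq annotates as an intron and the assembled transcript keeps. Capitals mark the skipped or kept stretch.
Peg3 kept stretch, chr7:6709227-6709276, minus strand: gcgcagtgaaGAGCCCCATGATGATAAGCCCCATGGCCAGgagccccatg
Peg3 skipped in MSTRG.15856.1, chr7:6708030-6708070, minus strand: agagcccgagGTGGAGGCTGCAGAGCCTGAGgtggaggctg
Peg3 skipped in MSTRG.15856.2, chr7:6708051-6708091, minus strand: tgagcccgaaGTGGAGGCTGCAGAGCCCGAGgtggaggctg
Ccdc86 skipped in MSTRG.9171.5, chr19:10948920-10948999, minus strand: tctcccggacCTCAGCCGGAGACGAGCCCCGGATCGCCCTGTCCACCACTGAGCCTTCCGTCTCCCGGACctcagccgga
Ubb skipped in MSTRG.2618.5, chr11:62552640-62552887, plus strand: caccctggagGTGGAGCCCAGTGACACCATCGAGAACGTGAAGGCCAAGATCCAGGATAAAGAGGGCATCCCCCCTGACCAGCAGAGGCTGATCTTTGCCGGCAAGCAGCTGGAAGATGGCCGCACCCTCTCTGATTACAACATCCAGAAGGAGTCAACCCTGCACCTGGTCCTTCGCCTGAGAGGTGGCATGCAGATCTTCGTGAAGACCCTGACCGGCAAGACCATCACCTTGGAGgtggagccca

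These stretches are units of tandem repeats. The 60 skipped bases of Ccdc86, a nucleolar protein gene, were the same as the 60 bases on either side at every position. The 30 kept bases of Peg3, an imprinted zinc-finger gene, equalled the next 30 bases at every position. In Ubb, which encodes ubiquitin as head-to-tail copies, the 228 skipped bases matched the preceding 228 at 222 positions. In both Peg3 transcripts the skipped 21 bases lay side by side, and each was the same as the following 21 bases at 19 or 20 positions.

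The retained introns were short. The 567 holders kept 521 different introns with a median length of 295 bases (quartiles 136 and 741, range 30 to 7747). The 3540 introns that the same transcripts spliced out had a median of 787 bases (quartiles 244 and 2009). Comparing within a transcript, the kept intron was shorter than the median spliced intron in 387 of 523 transcripts. The 145 added introns inside a reference exon were shorter still, with a median of 97 bases and quartiles of 47 and 228. The lengths, positions and sequence ends of introns are given as a description without a test, because 1 gene can contribute several introns.

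**Figure D2:**
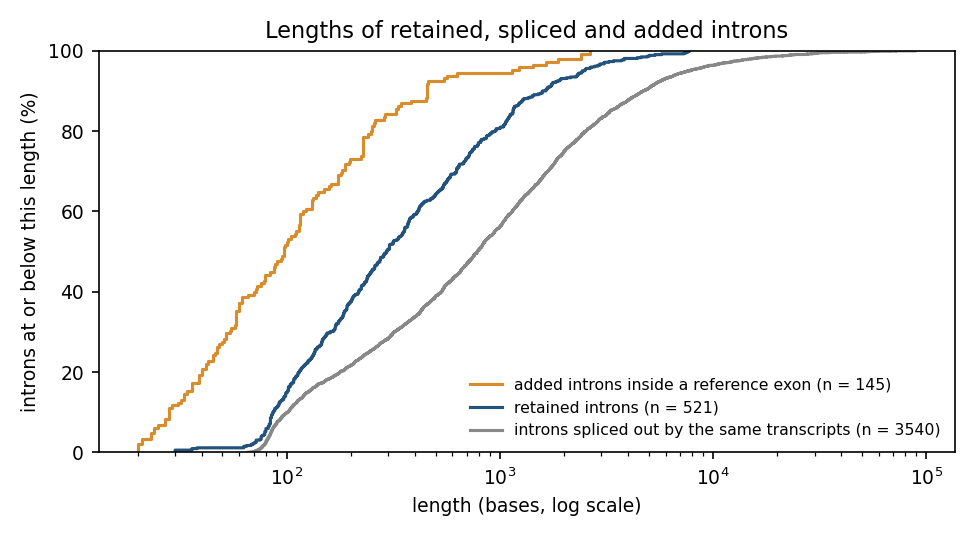
Cumulative share of introns (y axis, percent) at or below each length (x axis, bases, log scale) for retained introns (blue), introns spliced out by the same transcripts (grey) and added introns inside a reference exon (orange). The blue curve, with a median of 295 bases, lies between the orange curve at 97 and the grey curve at 787.

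Pooled over transcripts, retained introns lay at the ends of genes more often than spliced ones. Of the 521, 189 (36.3%) were the first intron of the matched transcript and 138 (26.5%) the last, 20 of them being the only intron. Among the 3540 spliced introns, 173 (4.89%) were first and 269 (7.60%) last. A transcript with many introns adds many internal ones to the spliced set, so these shares are not weighted alike and position was not compared within a transcript. Coding sequence lay on both sides of 313 retained introns (60.1%), and 188 (36.1%) had a length that was a multiple of 3. Other annotations already contained many of them: 300 (57.6%) fell inside a GENCODE M21 exon, of which 144 inside a transcript that GENCODE calls retained_intron, and 120 (23.0%) inside an exon of another RefSeq transcript. The other 206 (39.5%) fell in neither.

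The first and last bases differed between kept and added introns. Sequence could be read only where a GENCODE M21 exon covered the intron and its flanks. That held for 284 of the 521 retained introns, and for none of the 206 that lay in neither annotation. Of the 284, 262 (92.3%) had the GT-AG ends of ordinary introns, 8 had GC-AG ends and none had CT-AC ends. Of 132 added introns inside a reference exon with sequence, 48 (36.4%) had GT-AG ends and 36 (27.3%) had CT-AC ends, which is GT-AG read on the opposite strand. A direct repeat of 10 or more bases joined the ends of 65 of these 132 (49.2%) and of 9 of the 284 retained introns (3.17%).

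The 3 host genes with the most members, Ubb with 14, Plagl1 with 11 and Lrrc47 with 10, had none that held a whole intron. Next in number came Eif4g3, a translation initiation factor gene, with 8 members and Atxn2l, Dusp9 and Myo9b with 7 each, and all of these members held one. The share of Myo9b, a myosin gene, on its members was 74.2% ± 2.47 in controls and 75.6% ± 0.584 in PB (SD, n = 3 each), and the shares of all 4 genes overlapped between groups. Ccdc86 with 5 members and Klhl24 with 3, chosen for their repeats after their values were seen, again had none with a whole intron. In Ubb, 12 of 13 added introns were multiples of 228 bases in length. In Plagl1, an imprinted zinc-finger gene, 10 of 12 were multiples of 58, and at 1 of these sites the skipped 58 bases matched the next 58 at 57 positions. All 5 in Ccdc86 were multiples of 60 and all 3 in Klhl24 were multiples of 45. The added introns had CT-AC ends in all 5 cases in Ccdc86, all 3 in Klhl24, 11 of 12 in Plagl1 and 6 of 13 in Ubb. In Lrrc47, which encodes a leucine-rich repeat protein, all 12 had GT-AG ends and 11 had a direct repeat of at least 10 bases.

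The libraries held between 97165644 and 125985399 transcript counts, so 3 counts, the floor used here, stood for at most 0.0305 CPM, the counts scaled to library size. A count at transcript level is the share of gene coverage that the assembler StringTie assigned to that isoform and not a tally of reads unique to it. In total, 6 of 6 germ cell markers and 6 of 6 pregranulosa markers exceeded 1 CPM as gene sums, adrenal markers summed to under 1 CPM in every pool, and summed Sertoli markers lay between 15.3 and 19.4 CPM. Summed germ cell markers were lowest in PB pool 2 at 484 CPM, against 567 to 877 CPM in the other pools. Red blood cell markers ranged from 14792 to 31752 CPM in controls and from 18134 to 19964 CPM in PB. Summed mesonephros markers were at 32.0 CPM in control pool 3 and between 13.8 and 20.4 CPM elsewhere, and fetal Leydig markers at 32.0 CPM in PB pool 1 and between 55.9 and 61.9 CPM elsewhere. The low Leydig sum came mainly from Hsd3b1, at 14.8 CPM in PB pool 1 and between 39.0 and 45.6 CPM elsewhere. Of the other Leydig markers, Star and Cyp11a1 were highest in that pool, Cyp17a1 was lowest there, and Insl3 lay within the range of the other pools. The part of these markers in the results below was not tested. In pooled tissue, fewer cells of a type and less RNA per cell cannot be told apart.

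All 817 transcripts had a count in at least 1 pool, 745 reached a mean of 1 CPM, and 564 were above 3 counts in all 6 pools. The median mean level was 7.23 CPM. The median share of the host gene's counts on 1 member was 17.1% (quartiles 5.87 and 39.6), and 151 members held over 50%. Those holding a whole intron had a median share of 25.3%, compared with 7.06% for the 250 without one.

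The part of the libraries taken by all members overlapped between groups. They held 1.97, 1.96 and 1.69% of all counts in control pools 1 to 3, and 1.76, 1.91 and 1.90% in PB pools 1 to 3. The means were 1.87% ± 0.160 (SD, n = 3) in controls and 1.86% ± 0.0834 (SD, n = 3) in PB (exact two-sided permutation test, p = 1.0, where 3 against 3 pools cannot go below 0.1). The direction of this difference changed with the members counted. Transcripts holding a whole intron took 1.15% ± 0.0667 in controls and 1.17% ± 0.0406 in PB (n = 3 each). Leaving out the 5 globin transcripts gave 1.58% ± 0.115 and 1.65% ± 0.0430 (n = 3 each). As a share of the counts of their own 617 host genes, the members held 29.4% ± 1.23 in controls and 28.3% ± 0.908 in PB (n = 3 each).

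The most abundant members were products of highly expressed genes, and levels are compared per kilobase of exon. Hba-a1, encoding alpha globin, headed the list with MSTRG.2312.1 at 2284 CPM per kb and MSTRG.2312.2 at 1252 CPM per kb. Neither held a whole intron: all 3 added introns of Hba-a1 members ended at an exon of the neighbouring paralog Hba-a2, so that reads of the near-identical copies cannot be assigned with certainty. The red cell marker sum given above includes the Hba-a1 gene sum, and with it these transcripts, so it is not a separate measure. The part of red cells in these values was not tested.

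Among holders of a whole intron, the ribosomal protein genes Rps7 and Rpl10 led with 446 and 403 CPM per kb. In both, the kept intron was the first. The Rps7 transcript had 46032, 56646 and 40375 counts in controls and 46629, 36971 and 38013 in PB, overlapping between groups, and it made up 52.0% ± 1.10 of Rps7 counts in controls and 44.0% ± 9.37 in PB (SD, n = 3 each). The Rpl10 transcript made up 86.5% of its gene. Hnrnpa2b1, which encodes a nuclear RNA-binding protein known to regulate its own RNA, had 127 CPM per kb on a transcript that kept the last intron of 13. It stood at 41804, 46953 and 36494 counts in controls and 37545, 40114 and 44977 in PB, again overlapping. Ywhaq, a 14-3-3 protein gene, had 129 CPM per kb on a transcript without a whole intron. The most introns kept by 1 transcript were 8, in Hnrnpa3, a related RNA-binding protein gene.

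The highest shares belonged mainly to predicted loci. Among members of at least 1 CPM, the 10 highest shares lay between 98.5% and 100%. They were those of LOC108168376, Gm37416, 3010003L21Rik, Gm20939, LOC108168534, Gm42064, Sesn3, Setdb2-phf11c, Rhox7a and Gm40812. Single-exon transcripts made up 5 of the 10, running through every intron of a short gene model, such as Gm37416 with 1347, 3218 and 1725 counts in controls and 1816, 2448 and 1766 in PB. Sesn3, which encodes a stress-responsive sestrin, was the exception in level, with 25.0 CPM per kb. Its member held no whole intron and skipped 28 bases inside a reference exon with TT-GG ends.

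Imprinted Peg3 and Peg10, both paternally expressed, were also among the 10 most abundant. The Peg10 transcript held 58.8% of its gene, and its structure could not be checked. The 2 Peg3 transcripts, whose stretches are printed above, exchanged counts between pools. MSTRG.15856.1 had 94176, 54789 and 0 counts in control pools 1 to 3 and 100118, 62052 and 0 in PB pools 1 to 3. MSTRG.15856.2 had 0, 52734 and 84270 in controls and 0, 51124 and 112470 in PB. Each was at 0 in 1 or more pools of both groups, whereas their sum held between 92.0% and 95.7% of Peg3 counts in all 6 pools. The 2 transcripts shared 7 of 9 introns, and 25 exon bases were found only in the first and 21 only in the second.

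**Figure D3:**
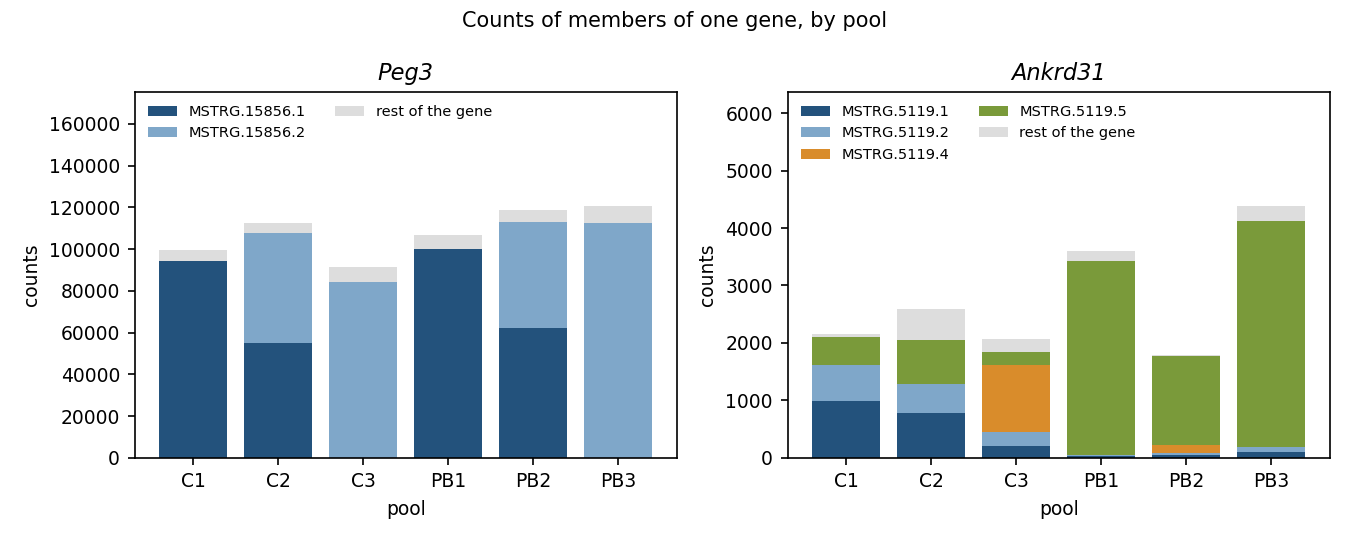
Counts (y axis) per pool (x axis, C1 to C3 control, PB1 to PB3 panobinostat) of each class n transcript of Peg3 and Ankrd31, stacked, with the rest of the gene in grey. Peg3 counts move between its transcripts while their sum stays at 92.0% to 95.7% of the gene, and MSTRG.5119.5 takes most Ankrd31 counts in the 3 PB pools.

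Members that changed this strongly between pools were counted, without checking whether another transcript of the gene gained the counts. Of the 745 members of at least 1 CPM, 204 (27.4%) had at most 3 counts in 1 pool and at least 100 in another. The share was 19.5% for reference transcripts at the same level, 28.0% for other assembled transcripts, and 1 of 617 for host gene sums. A gene sum is at least as high as its member, so it reaches the low limit less often. The median coefficient of variation within a group was 45.2% for members, 33.5% when members were summed per host gene and 6.93% for the host gene sums. Reference transcripts stood at 32.8%.

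Between control and PB, no member passed the test. With edgeR's quasi-likelihood test over 51227 transcripts, 0 of 653 tested members reached a fold change of 2 with an adjusted p of at most 0.05, compared with 0.0332% of all transcripts. The other 164 did not pass the filter, which needs about 10 counts in at least 3 pools. It also left out members with high counts in fewer pools, such as Eif5b MSTRG.146.4. That member had 12397, 0 and 31690 counts in PB and 0 in every control pool. Of the 653, 347 were higher and 306 lower in PB, with a median log2 fold change of 0.03 (0.01 over all transcripts), and 530 differed by less than 2-fold. An unadjusted p under 0.05 was found for 30 members (4.59%) against 3.56% of all transcripts, and 64 (9.80%) did not overlap between groups against 9.95%. For the 521 tested members holding a whole intron the counts were 22 and 50, and for the 132 others 8 and 14. DESeq2, run as an alternative, called 21 of 629 members compared with 1.85% of all transcripts, 11 of them higher in PB (0.95% of all) and 10 lower (0.902%). Among these 21, 14 had been tested by edgeR and the rest had not passed its filter. A whole intron was held by 8 of the 21, 8 had every pool of the lower group at or under 3 counts, and 7 had a pool of the higher group at or under 3 counts.

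**Figure D4:**
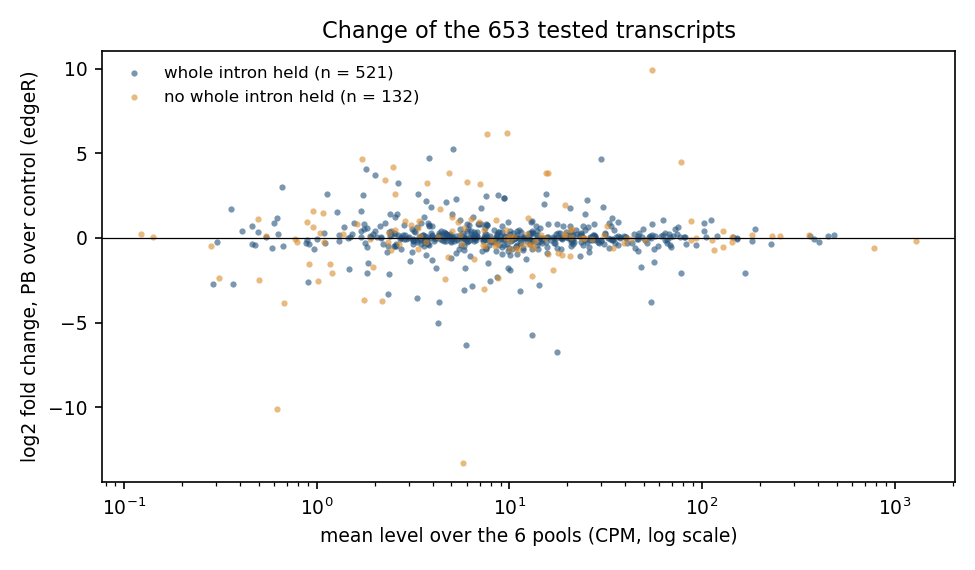
Log2 fold change of PB over control from edgeR (y axis) against mean CPM over the 6 pools (x axis, log scale) for the 653 tested transcripts (blue, whole intron held; orange, none held). Points lie around 0, 530 of them within a 2-fold change, and none passed the test.

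The members and shares named next by their p were those with the smallest p among the ones whose groups did not overlap, so the lack of overlap was fixed by that choice. Ip6k2, encoding an inositol hexakisphosphate kinase, had the member with the smallest p. MSTRG.19224.8 kept the 92-base intron printed above and had 203, 228 and 155 counts in controls and 906, 1158 and 809 in PB. All PB pools were above all control pools (log2 fold change 2.28, SE 0.26, edgeR adjusted p = 0.183). DESeq2 gave an adjusted p of 7.3e-13. The other Ip6k2 member, MSTRG.19224.7, kept the same intron and had 540, 859 and 786 counts in controls and 1514, 1117 and 1631 in PB, also without overlap. Together they held 14.6, 16.8 and 19.8% of the gene in controls and 45.8, 44.2 and 41.4% in PB, and the test of that share did not pass (log2 odds 1.93, SE 0.22, limma adjusted p = 0.0996). The Ip6k2 gene sum was 52.6 ± 2.64 CPM in controls and 51.4 ± 1.61 CPM in PB (SD, n = 3 each).

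Mef2d and Akap7 gave values of the same kind. The member of Mef2d, a MADS-box transcription factor gene, kept the 303-base intron 11 of 12 and had 135, 188 and 227 counts in controls and 983, 807 and 701 in PB. Its groups did not overlap (log2 fold change 2.15, SE 0.34, edgeR adjusted p = 0.324). It held 1.98% ± 0.576 of Mef2d counts in controls and 8.41% ± 1.86 in PB (SD, n = 3 each), and the gene sum was 90.9 and 94.1 CPM. In Akap7, which anchors protein kinase A, the transcript with the 238-base last intron had 93, 136 and 81 counts in controls and 275, 961 and 659 in PB, all PB pools being higher (log2 fold change 2.59, SE 0.52, edgeR adjusted p = 0.563).

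Ly6e went the other way. This gene for a GPI-anchored surface protein had a member keeping introns 1 and 4, the latter printed above, with 1848, 694 and 1641 counts in controls and 192, 188 and 413 in PB. The groups did not overlap (log2 fold change -2.52, SE 0.57, edgeR adjusted p = 0.718). It held 18.5% ± 8.65 of Ly6e counts in controls and 3.49% ± 1.53 in PB (SD, n = 3 each).

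Ankrd31, a germ cell gene needed for meiotic DNA breaks on the pseudoautosomal region, had 4 members, all keeping the same 97-base first intron. MSTRG.5119.5 had 482, 774 and 232 counts in controls and 3372, 1546 and 3930 in PB. MSTRG.5119.1 had 998, 776 and 208 in controls and 32, 43 and 99 in PB, and MSTRG.5119.2 had 622, 503 and 247 against 18, 33 and 97. None of these groups overlapped, and the edgeR adjusted p was 0.592, 0.645 and 0.728 in that order. The transcripts differed elsewhere than at the kept intron: MSTRG.5119.1 and MSTRG.5119.2 shared 22 of 24 introns, with 117 exon bases found only in the first. Summed, the 4 members held 97.9, 79.3 and 89.3% of Ankrd31 counts in controls and 94.9, 98.4 and 93.9% in PB, so the groups overlapped for intron retention as a whole (log2 odds 1.19, SE 1.10, limma adjusted p = 1.00). PB pool 2, lowest in germ cell markers, was also the lowest PB pool in Ankrd31 gene counts, with 1797 against 3606 and 4392, and the part of cell number in these values was not tested.

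The remaining members named by the smallest p held no whole intron. Actr8, a chromatin remodelling subunit gene, had 75, 62 and 200 counts on MSTRG.5420.2 in controls and 1058, 1061 and 1529 in PB (log2 fold change 3.33, SE 0.62, edgeR adjusted p = 0.465), and without control pool 3 the log2 fold change was 4.13. Its 3 members summed to 14.2, 41.2 and 54.2% of the gene in controls and 35.3, 39.9 and 57.2% in PB, which overlapped. Nxf1, the main mRNA export receptor, had 192, 46 and 146 counts on MSTRG.9109.1 in controls and none in PB, at least 45.5-fold lower against a floor of 3 counts per pool (edgeR adjusted p = 0.541). That transcript was 0.79% of the gene, and it passed the count filter through the control pools alone.

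The share of a host gene taken up by its members was tested for 486 genes with limma on the log2 odds of member counts to all other counts of the gene. One share, that of Atp5h, passed (fold of at least 2, adjusted p of at most 0.05), compared with 0.272% of all 5881 gene and class units. It was lower in PB: MSTRG.3482.3, a transcript of this ATP synthase subunit gene, had 510, 1326 and 1806 counts in controls and 0 in all PB pools (log2 odds -11.31, SE 0.67, limma adjusted p = 0.0106). It held 4.88, 9.99 and 18.7% of the gene in controls. A share was tested only with at least 10 member counts in at least 3 pools, and Atp5h met this through the control pools alone. The count was at least 417-fold lower against a floor of 3 counts per pool. Atp5h as a gene was at 108 ± 5.76 CPM in controls and 110 ± 1.92 CPM in PB (SD, n = 3 each). The transcript kept no whole intron but skipped 462 bases inside a reference exon, and without PB pool 1 the adjusted p was 0.0555. With 5 in place of 0.5 as pseudocount the log2 odds was -8.00 (limma adjusted p = 0.0228), and with transcripts grouped by StringTie locus no share of members passed.

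Of the 486 shares, 260 were higher and 226 lower in PB, with a median log2 odds difference of 0.04. An unadjusted p under 0.05 was found for 26 (5.35%) against 3.43% of all units, and 49 (10.1%) did not overlap between groups against 9.45%. When shares were built from whole-intron transcripts alone, 0 of 393 passed with limma, against 15 of all 5849 units in that setting. An unadjusted p under 0.05 was found for 18 (4.58%), against 195 of the 5849.

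The 5 shares with the smallest p among those higher in PB were those of Ip6k2, Sparc, Mef2d, Akap7 and Erdr1. Erdr1, which lies on the shared end of the X and Y chromosomes, so that its reads cannot be placed with certainty, had 5 members that all held an intron. Their share was 38.5, 34.3 and 35.3% in controls and 50.1, 64.6 and 54.9% in PB (limma adjusted p = 0.967). Lower in PB without passing were Poc1b, a centriole gene, Rab1a, a small GTPase gene of secretion, and Klhl24, a ubiquitin ligase adaptor gene. The Poc1b member, which kept the first intron, held 84.7, 93.8 and 91.0% in controls and 47.4, 51.3 and 76.3% in PB (limma adjusted p = 0.977). Rab1a stood at 85.6% ± 12.4 and 50.5% ± 1.04, and Klhl24 at 39.3% ± 8.45 and 23.9% ± 4.09 (SD, n = 3 each), neither gene having a whole intron kept.

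**Figure D5:**
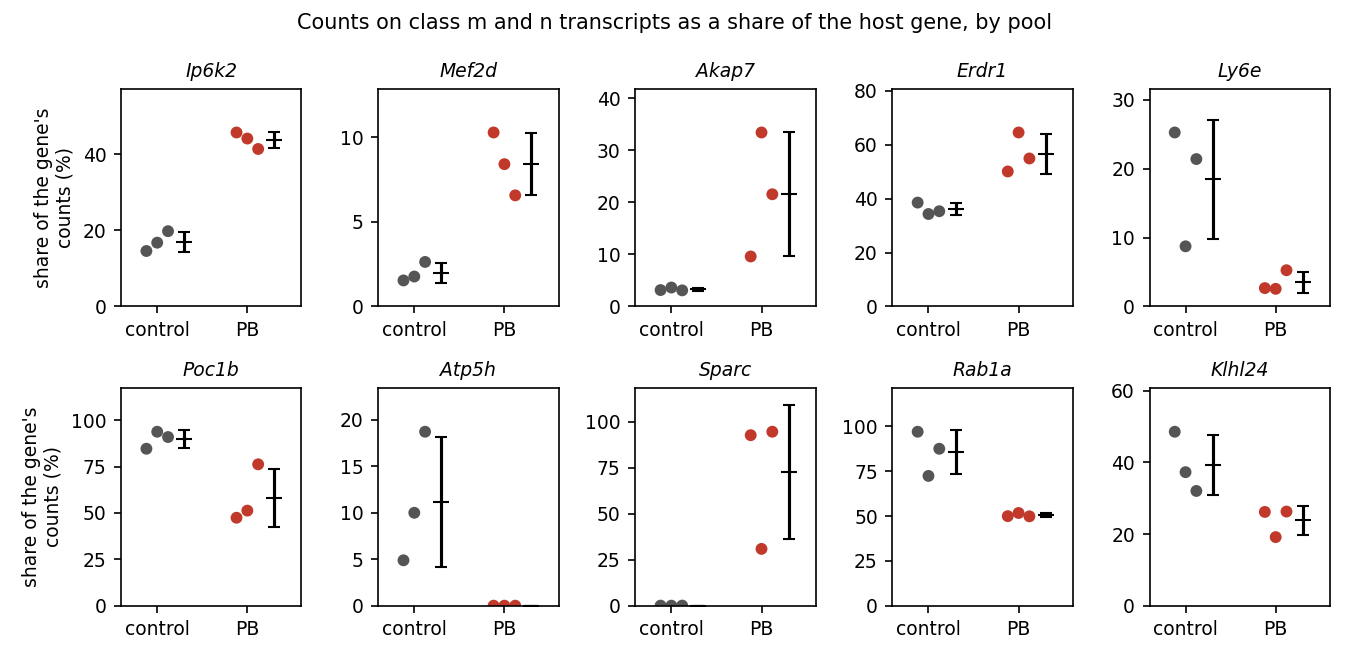
Share of the host gene's counts held by its class m and n transcripts (y axis, percent) in each control pool (grey) and PB pool (red), with mean and SD beside the points, for the 5 genes in each direction with the smallest p among those whose groups did not overlap. The lack of overlap was thus fixed by the choice of genes, and of the 10 only Atp5h passed the test. The members of Atp5h, Sparc, Rab1a and Klhl24 kept no whole intron.

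Of the 617 host genes, 2 were called by edgeR on gene sums, against 0.0154% of all 19435 genes. Npc2, which binds cholesterol in the lysosome, was at 64.7, 64.1 and 66.2 CPM in controls and 150, 152 and 146 CPM in PB (log2 fold change 1.20, SE 0.04, edgeR adjusted p = 0.000772). Sparc, a secreted matrix glycoprotein gene, was at 545 ± 3.23 CPM in controls and 1109 ± 41.2 CPM in PB (SD, n = 3 each), a log2 fold change of 1.02 (SE 0.05, edgeR adjusted p = 0.00230). Neither had a kept intron. The Npc2 member held 18.7% of the gene in control pool 3, 15.9% in PB pool 1 and none in the other 4 pools.

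The Sparc members followed the PB pools unevenly. MSTRG.2499.4 had 1 count in each control pool and 97720, 0 and 125682 in PB pools 1 to 3, and with the other member the share of Sparc was 92.6, 30.9 and 94.5% in PB but at most 0.045% in controls. The share did not pass (log2 odds 14.63, SE 1.73, limma adjusted p = 0.121), and without PB pool 2 the log2 odds was 16.31 (limma adjusted p = 0.0406). The gene sum, in contrast, was 1064, 1120 and 1144 CPM in the 3 PB pools, at a similar level in each. For host gene sums, 39 had an unadjusted p under 0.05 (6.32%) against 4.46% of all genes, and 66 did not overlap between groups, against 10.7%. DESeq2 called the same number, 2 of 616, against 0.0539% of all genes.

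Genes known for regulated intron retention were described from lists. Of 44 detained-intron and autoregulated genes, 11 were hosts (25.0%, against 3.17% of all genes tested as sums), with 12 members that all held a whole intron. The hosts were the kinases Clk1 and Clk4, the SR protein gene Srsf5, the RNA-binding protein genes Hnrnpa2b1, Tardbp, Rbm5, Luc7l2 and Son, and Ogt, Rsrp1 and Mdm4. The list was chosen for this property, so its share among hosts describes the assembly. Of 11 members tested, 0 were called by edgeR (0.0332% of all transcripts) and 0 had an unadjusted p under 0.05 (3.56% of all), and 6 were higher and 5 lower in PB.

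The Ogt transcript, keeping intron 5 in the gene for O-GlcNAc transferase, had 7397, 10050 and 8025 counts in controls and 8759, 8238 and 10117 in PB, 79.5% of the gene on average. Srsf5 had 6160, 8940 and 7132 in controls and 6362, 7296 and 7064 in PB, and its kept intron 5 lay inside a GENCODE retained_intron transcript. Clk1, with intron 3 kept, had 787, 692 and 606 in controls and 455, 662 and 720 in PB. The groups overlapped in all 3. In Mdm4, a p53 inhibitor gene, and Son, a splicing cofactor gene, pools of the same group differed by several fold. Mdm4 had 5935, 1024 and 6759 counts in controls and 6805, 1028 and 8390 in PB, and Son 10281, 12266 and 1317 in controls and 6011, 1375 and 12855 in PB. The Tardbp transcript had 2822 counts in PB pool 2 and 0 in the other 5 pools.

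Of 22 nonsense-mediated decay and nuclear RNA surveillance genes in the files, 3 were hosts (Pabpn1, Tpr and Nxf1), with 4 members of which 2 held an intron. The Tpr transcript with the 240-base intron had 7024, 6745 and 6272 counts in controls and 6082, 7838 and 10249 in PB. The Pabpn1 transcript, keeping the last intron of a poly(A)-binding protein gene, had 4447, 5879 and 5235 in controls and 4947, 5258 and 6217 in PB. Both overlapped between groups. None of the 36 spliceosome and branch-site genes was a host, and edgeR called 0 of them as gene sums, against 0.0154% of all genes, with 0 at an unadjusted p under 0.05, against 4.46%.

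Of 38 germ cell and meiosis genes on the list, 1 was a host. The list left out Ankrd31 and other host genes active in germ cells, among them Terb1 and Tdrkh with 2 members each and Psmc3ip and Stk31 with 1 each, which were named after their values were seen. The Sycp3 transcript with the 124-base last intron had 2318, 2736 and 1634 counts in controls and 3185, 1924 and 4522 in PB, with overlap between groups and a share of Sycp3 of 18.7% ± 3.25 and 21.0% ± 2.25 (SD, n = 3 each; log2 fold change 0.48, SE 0.31, edgeR adjusted p = 1.00). None of the 20 pregranulosa and ovarian somatic genes and none of the 18 histone deacetylase genes was a host.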

How the data were processed

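Stranded polyA libraries of 6 ovary pools were sequenced. According to the submitters' notes and the methods, the authors aligned reads with HISAT2 2.1.0 to mm10, built and combined isoforms in StringTie 1.3.5 with RefSeq as guide, and deposited whole-number count values per transcript derived from StringTie coverage. The other deposited values used were exon coordinates and transcript annotation (class code, matched transcript, gene name), which the authors placed beside their DESeq2 1.30.0 comparison. That comparison's fold changes, p-values and 6 normalised columns were not used. The version of the class code program is not given in the sources used here. In 2 rows the annotation was shifted by 1 column, and 3 counted transcripts had no annotation row.

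Counts were tested with edgeR 4.0.16 (TMM scaling, a filterByExpr minimum of 10 counts, quasi-likelihood test) per transcript and per gene name, on the whole table with Benjamini-Hochberg adjustment. The SE beside an edgeR fold change was derived from the test, as the absolute log2 fold change divided by the square root of its F statistic. Shares of a gene were tested with limma 3.58.1 on log2((class counts + 0.5)/(other counts + 0.5)). Calls needed a fold of 2 and an adjusted p of 0.05. DESeq2 1.42.0 was an alternative, with other filters, scalings, pseudocounts, a StringTie locus grouping, a replicate block and leaving out each pool. Retained introns were whole introns of the matched transcript inside an exon, and sequences came from GENCODE M21 transcripts covering an intron with 10 bases on each side. Named members were the 10 most abundant, the 10 with the highest share at 1 CPM or more, the 5 smallest p in each direction among non-overlapping members and shares, all calls, the 3 genes with most members, and listed hosts. The members and gene lists were chosen with earlier results of these data known. Replicate numbers were not used to pair the pools in the main tests. The correlation of deviations from the group mean between same-numbered pools was 0.093, 0.147 and -0.018 for genes. Between pools of unlike number it lay from -0.167 to 0.096. With 3 pools per group these values cannot exclude a pairing by number. The series text calls the pools biological replicates and does not say whether they came from separate litters, so p-values measure the spread between these pools. Intervals are not given, and the floor of 3 counts covers counting error only.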

Additional observations from a re-analysis of the deposited data

How the results depend on the processing

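Calls depended on the tool and on single pools. DESeq2 called 21 members where edgeR called 0, and edgeR had tested 14 of the 21. With a replicate block, host gene calls went from 2 to 0, retained share calls from 1 to 0, and member calls stayed at 0. Whether the numbers pair the pools is not known. Under that block Npc2 and Sparc each had an edgeR adjusted p of 0.0594, and the Atp5h share a limma adjusted p of 0.277. Not every pool correlated best with its own number at transcript level, where the correlations of deviations between same-numbered pools were -0.002, 0.012 and 0.003. Retained share calls were 0 when transcripts were grouped by StringTie locus and 0 with whole-intron members only, an alternative chosen after seeing the data. Leaving out each pool gave 0 to 1 member calls, 2 to 3 host gene calls and 0 to 3 retained share calls. Without PB pool 2 the member called was Sparc MSTRG.2499.4 (edgeR adjusted p = 0.000846), the added host gene Zfp579 (log2 fold change -1.30), and the added shares Sparc and Zfp579. With all pools MSTRG.2499.4 did not pass the filter and was not tested. It entered through the remaining PB pools once PB pool 2, where it had 0 counts, was left out. Without control pool 2 the shares of Rab8a and Itga3 were added, without PB pool 3 that of Spg21, and without PB pool 1 none passed. The cause was not tested. The share of all counts, 0.018 percentage points lower in PB, was 0.017 higher for class n alone, 0.025 higher for whole-intron members, 0.0021 higher for members of at least 10 counts in every pool and 0.072 higher without globin members, which was chosen after seeing the data. Leaving out each pool moved that difference between -0.11 and 0.031. For the named members, shares and gene sums, 223 of 238 alternatives kept direction and side of the threshold, 11 moved past it and 4 lost it, and none changed sign. These counts do not measure robustness. The members and shares were chosen for groups without overlap, which largely fixes the sign when a pool is left out. Only the Atp5h share and the Npc2 and Sparc gene sums had passed at first, so for the rest keeping the side meant staying uncalled. Transcript counts come from coverage split between isoforms, so their depth per isoform is not known.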
